A study of Rattus norvegicus with 6 samples.

Results

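The genes described here are those of the TIM and TOM protein import machinery of mitochondria. They were taken from the deposited gene table by name, as every symbol that starts with Timm or Tomm followed by a digit, which gave 27 of 40455 genes. RNA was measured by poly-A sequencing in 6 libraries of H9c2 (2-1), a rat cardiomyoblast line labelled as wild type and as cardiomyocyte. The cells of all 6 libraries had been differentiated for 5 days in medium with 1% serum and 1 µM retinoic acid before a lipid transfection of 24 h with a gapmer at 25 nM. Gapmers are antisense oligonucleotides, here with locked nucleic acid bases, through which RNase H cleaves the paired target RNA. The gapmer was a negative control sequence in 3 libraries and was directed against the long non-coding RNA Tug1 in the other 3. The libraries come from a single cell line and 1 gapmer per group. The labels do not say whether replicates were separate cultures, so p-values measure the spread between these libraries, which may be technical. As RNA came from whole cultures, fewer cells of a type and less RNA per cell cannot be told apart.

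Nearly all mitochondrial proteins are made in the cytosol and enter through the TOM complex of the outer membrane. From there, proteins with a cleavable presequence pass the TIM23 complex of the inner membrane and are pulled into the matrix by a motor, while metabolite carriers are escorted across the intermembrane space by hexamers of small TIM proteins and inserted by the TIM22 complex. The small TIM proteins carry paired cysteine motifs and are themselves trapped in the intermembrane space by the disulfide relay of Chchd4 (the Mia40 homolog) and Gfer. Cardiac and skeletal muscle cells hold many mitochondria and depend on this import.

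The oligonucleotides that define the groups are shown first, 5′ to 3′ as the labels give them.
Tug1 gapmer: attcagtagacagcta
Negative control gapmer: gctcccttcaatccaa

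Tug1 checked the labels. Its counts were 713, 672 and 718 in the controls against 164, 152 and 165 with the Tug1 gapmer, a log2 fold change of -2.19 (SE 0.0787). Total counts were 12977927 to 13543640 per library, and at that depth 1 CPM (the level used here, counts scaled to the size of the library) equalled 12.9 to 13.8 counts. The labelled cell type was checked against its markers. Of 10 cardiomyocyte markers, 4 were above 3 counts in every library. Tnnt2 lay at 349 ± 18.0 CPM in controls (SD, n = 3), while Myh6, Myh7, Nppa and Ryr2 were at or near 0, and the skeletal muscle factor Myog lay at 275 ± 4.39 CPM (SD, n = 3). The 6 skeletal muscle markers summed to 738 to 746 CPM in controls and 1095 to 1138 CPM with the Tug1 gapmer, with 5 called higher and Myod1 called lower (-0.32). Calls are at an adjusted p under 0.05 in the edgeR fit given below. It called 61.7% of all tested genes, 30.8% higher and 30.9% lower. The 10 cardiomyocyte markers summed to 346 to 381 and 410 to 461 CPM, and 4 smooth muscle markers to 890 to 990 and 1029 to 1189 CPM. Most of the cardiomyocyte sum was Tnnt2, which was called higher (0.24). Actc1 (0.97) and Myl2 (1.23, on 5 to 25 counts) were called higher too, and Actn2 was not called. Of the smooth muscle markers Myh11 (1.08) and Acta2 (0.33) were called higher, and Cnn1 and Tagln were not called. The sums of 5 fibroblast markers overlapped between groups (43017 to 44408 and 40231 to 43105 CPM), with Col3a1 higher (0.47) and Col1a1 (-0.23) and Thy1 (-0.40) lower. None of 3 endothelial markers passed 3 counts, and of 3 leukocyte markers Ptprc and Adgre1 had no count while Cd68 was higher (1.09). The part of the muscle and Cd68 differences in the results below was not tested.

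Of the 27 genes, 23 passed the expression filter and were tested. In edgeR's quasi-likelihood fit over all genes, 13 of the 23 (56.5%) were called at an adjusted p under 0.05, against 61.7% of the 14215 genes tested. The calls divided into 6 higher, where 30.8% of all tested genes were higher, and 7 lower, where 30.9% of all were lower. The share of import genes that changed was thus near that of all genes. Their median log2 fold change (Tug1 gapmer over control gapmer) was 0.03, beside 0.00 for all tested genes, and their median absolute log2 fold change was 0.26, beside 0.34 for all. For 12 of the 23, the 3 control and the 3 Tug1 gapmer libraries did not overlap, against 65.6% of all tested genes. By role, the TIM23 presequence translocase and its motor held 4 of the 6 higher genes, and the small TIM proteins held 4 of the 7 lower ones. Between replicates the SD was a median of 6.73% of the mean in controls and 5.71% with the Tug1 gapmer.

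**Figure D1:**
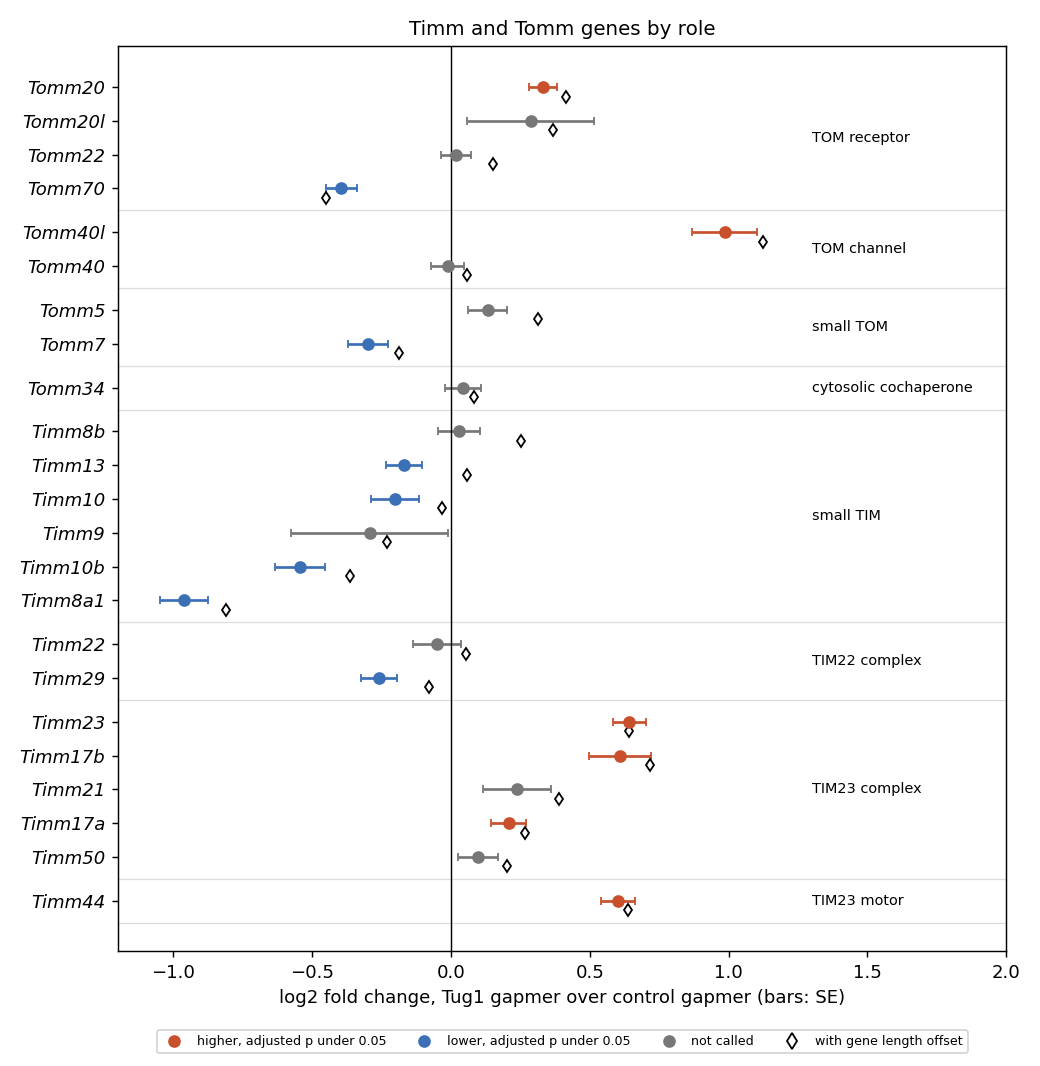
Log2 fold change (x axis, Tug1 gapmer over control gapmer, bars are SE) of the 23 tested Timm and Tomm genes (y axis) by role, filled points from the fit over all genes and open diamonds from the fit with a gene length offset. All genes of the TIM23 complex and motor lie to the right of 0, from 0.10 to 0.64, and small TIM genes reach -0.96.

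As several import genes were called in each direction, promoters are shown for the 6 called genes whose log2 fold change was 0.5 or more in size. They are RefSeq sequences of GRCr8, 250 bases before to 50 bases from the annotated start, on the gene's strand. Capitals mark matches to 4 motifs searched on both strands: CGCATGCG (the core of the NRF1 site), CCGGAAG (GABP), ATGGCGGC (YY1) and CACGTG (an E-box).
Timm23 (chr16:7442570-7442869, minus strand): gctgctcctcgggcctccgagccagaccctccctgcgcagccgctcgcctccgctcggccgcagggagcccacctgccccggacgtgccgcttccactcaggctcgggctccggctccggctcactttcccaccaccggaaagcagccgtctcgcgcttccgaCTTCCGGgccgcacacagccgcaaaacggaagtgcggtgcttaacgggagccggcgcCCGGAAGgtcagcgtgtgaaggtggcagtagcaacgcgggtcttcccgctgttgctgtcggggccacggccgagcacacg
Timm44 (chr12:7427076-7427375, minus strand): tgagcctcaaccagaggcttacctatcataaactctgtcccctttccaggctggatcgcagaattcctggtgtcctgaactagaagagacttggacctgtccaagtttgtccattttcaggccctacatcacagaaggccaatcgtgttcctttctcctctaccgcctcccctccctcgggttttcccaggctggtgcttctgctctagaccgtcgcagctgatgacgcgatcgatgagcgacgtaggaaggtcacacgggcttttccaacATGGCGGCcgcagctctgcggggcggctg
Timm17b (chrX:17275291-17275590, minus strand): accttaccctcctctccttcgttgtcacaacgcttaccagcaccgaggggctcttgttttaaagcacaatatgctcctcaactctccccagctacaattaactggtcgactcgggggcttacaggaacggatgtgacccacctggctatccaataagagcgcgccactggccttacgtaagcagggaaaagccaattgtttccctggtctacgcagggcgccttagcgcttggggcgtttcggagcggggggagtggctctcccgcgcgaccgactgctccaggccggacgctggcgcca
Tomm40l (chr13:86174072-86174371, minus strand): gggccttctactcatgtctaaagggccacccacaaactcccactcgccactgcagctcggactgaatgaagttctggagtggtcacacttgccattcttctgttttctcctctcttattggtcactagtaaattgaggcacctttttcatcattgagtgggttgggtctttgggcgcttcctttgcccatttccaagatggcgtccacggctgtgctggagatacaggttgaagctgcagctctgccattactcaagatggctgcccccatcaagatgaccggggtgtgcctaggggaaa
Timm8a1 (chrX:102015395-102015694, minus strand): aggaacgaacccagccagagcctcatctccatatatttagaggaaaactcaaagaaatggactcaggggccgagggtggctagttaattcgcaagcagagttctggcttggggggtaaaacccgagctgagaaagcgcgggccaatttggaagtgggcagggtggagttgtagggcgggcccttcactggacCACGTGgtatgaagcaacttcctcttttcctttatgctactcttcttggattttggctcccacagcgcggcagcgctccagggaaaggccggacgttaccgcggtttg
Timm10b (chr1:169392105-169392404, plus strand): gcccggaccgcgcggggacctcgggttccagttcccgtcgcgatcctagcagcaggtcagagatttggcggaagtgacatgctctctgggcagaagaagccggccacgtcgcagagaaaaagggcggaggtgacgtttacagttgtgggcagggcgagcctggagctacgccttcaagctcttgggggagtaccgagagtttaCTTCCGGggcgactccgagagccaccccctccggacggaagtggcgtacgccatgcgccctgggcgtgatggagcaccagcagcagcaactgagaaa

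A promoter of that length was present for 23 of the 27 import genes. CCGGAAG was found in 8 of them (Timm8a2, Timm8b, Timm10, Timm10b, Timm23, Tomm20, Tomm22 and Tomm70) and in 8.75% of all 33469 promoters. It stood in 2 of the 6 promoters of higher genes and in 3 of the 6 available promoters of lower genes, and thus on both sides of the response. Among the promoters printed, Timm23 held it starting at -87 and -30 from the start and Timm10b at -47. CACGTG was found in Timm8a1, Timm9 and Timm10 and in 6.42% of all promoters, ATGGCGGC in Timm22, Timm44 and Timm50 and in 2.53%, and CGCATGCG in Tomm7 alone and in 1.66%. Matches to different motifs did not overlap in these windows, and the promoters of Tomm40l and Timm17b held none of the 4. The import promoters had a median GC content of 57% (43.7% to 71%), beside 51.7% for all promoters, and a match is a description of letters only.

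At the outer membrane the receptors moved apart. Tomm20, the receptor that first binds presequences, was at 143, 139 and 142 CPM in control replicates 1 to 3 and at 189, 173 and 171 CPM in Tug1 gapmer replicates 1 to 3. All Tug1 gapmer libraries lay above all controls, and the log2 fold change was 0.33 (SE 0.0505, adjusted p 5.40e-06). Rbm34, which overlaps it on the same strand, fell by 0.21. Tomm70, the receptor for carriers and other proteins with internal signals, was at 99.9, 95.8 and 91.5 CPM in controls and at 72.0, 75.5 and 70.9 CPM with the Tug1 gapmer. It fell without overlap of the groups, with a log2 fold change of -0.39 (SE 0.0556, adjusted p 1.82e-06). Tomm22, the central receptor that joins the channels, was at 97.1 ± 3.80 CPM in controls and 98.3 ± 1.88 CPM with the Tug1 gapmer (SD, n = 3). The groups overlapped and it was not called (log2 fold change 0.02, SE 0.0527).

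The channel genes also differed from each other. Tomm40, which encodes the beta-barrel pore, was at 61.8, 62.1 and 62.8 CPM in controls and at 65.8, 58.7 and 60.6 CPM with the Tug1 gapmer, so that the controls lay inside the range of the other group. Its log2 fold change was -0.01 (SE 0.0592, adjusted p 0.876). Its paralog Tomm40l was at 14.5, 10.6 and 11.6 CPM in controls and at 28.1, 22.5 and 22.1 CPM with the Tug1 gapmer. Every Tug1 gapmer library lay above every control, and the log2 fold change of 0.99 (SE 0.116, adjusted p 1.27e-07) was the highest of the 23 genes. Tomm40l overlaps Nr1i3, on the opposite strand, in the RefSeq gene table. Nr1i3 had 2 to 14 counts in controls and 11 to 20 with the Tug1 gapmer, against 137 to 189 and 292 to 387 for Tomm40l. Nr1i3 was called higher too (1.19, SE 0.474, adjusted p 0.0319), with overlapping groups. Whether reads of either gene entered the counts of the other was not tested.

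Of the small TOM subunits, which stabilise the pore, Tomm7 was at 52.8, 45.1 and 52.7 CPM in controls and at 43.3, 40.5 and 38.7 CPM with the Tug1 gapmer. Those ranges did not overlap, and Tomm7 fell with a log2 fold change of -0.30 (SE 0.0717, adjusted p 0.000992). Tomm5 was at 33.2 ± 1.33 and 36.4 ± 1.44 CPM (SD, n = 3), with no overlap of the libraries but no call (log2 fold change 0.13, adjusted p 0.107). Tomm6 had 0 counts in all 6 libraries. For counting error alone the limit is 3 counts, or 0.217 to 0.232 CPM per library, but it sets no bound on the RNA, since the annotation and the treatment of reads that match several places were not given in the sources used here. Tomm34, a cytosolic protein that binds chaperones and precursors, was at 57.9 ± 3.89 and 59.6 ± 3.404 CPM (SD, n = 3) and was not called (adjusted p 0.582). Stk4, which overlaps Tomm34 in the RefSeq gene table, was called higher (0.27, SE 0.0661). Summed over 4 genes, the TOM receptors were at 331 to 343 CPM in controls and 345 to 363 CPM with the Tug1 gapmer.

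**Figure D2:**
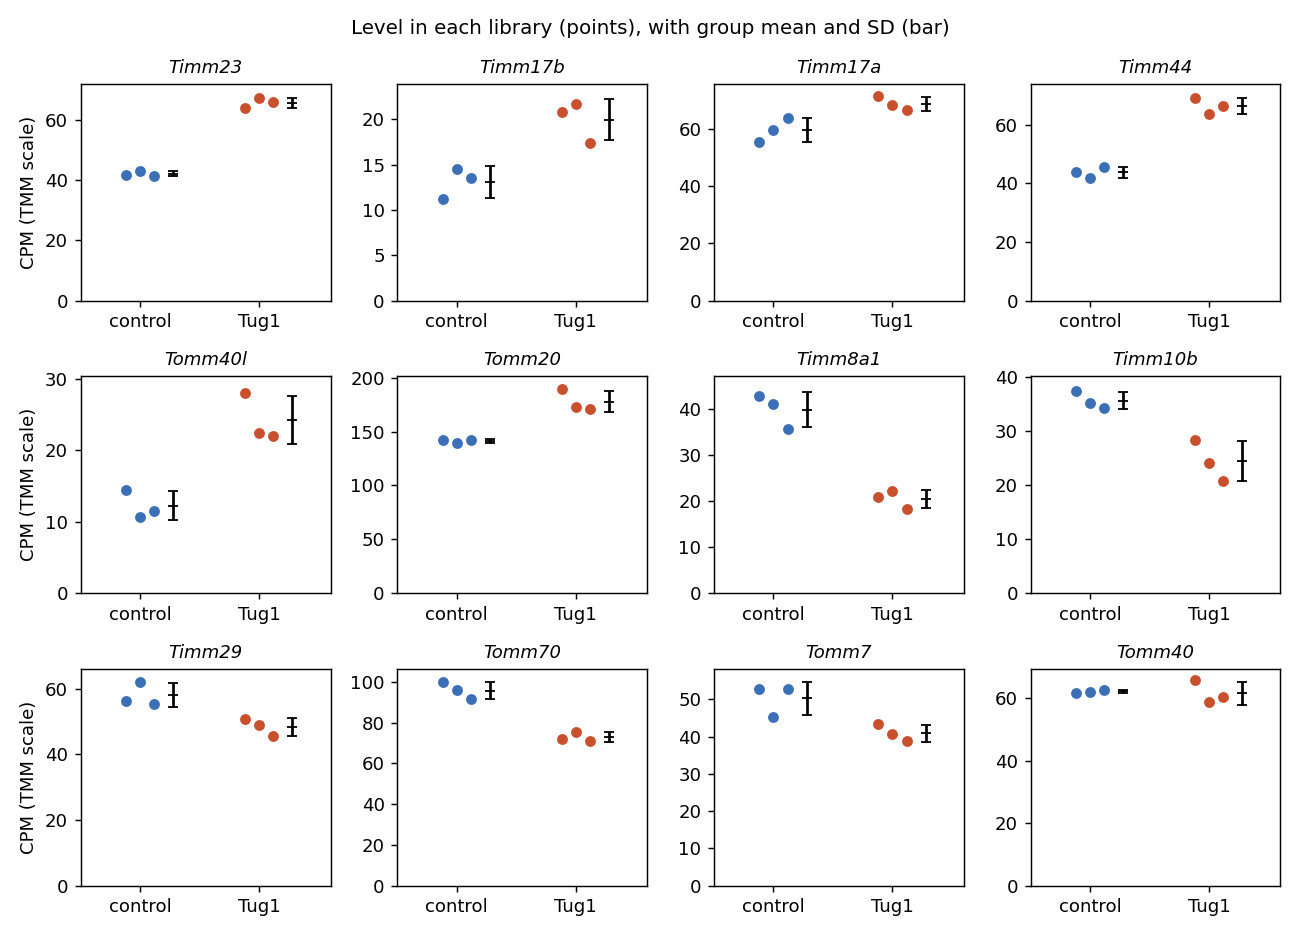
Level in CPM (y axis, from 0) of 12 Timm and Tomm genes in each of the 3 control (blue) and 3 Tug1 gapmer (red) libraries, with the group mean and SD as a black bar. Timm23 lies at 41.3 to 43.0 CPM in controls and 63.9 to 67.0 CPM with the Tug1 gapmer, Timm8a1 at 35.6 to 42.9 and 18.4 to 22.2 CPM, and the groups overlap for Tomm40.

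Of the 5 tested genes of the TIM23 complex, 3 were called higher and none lower. That is 60% called, near the 61.7% of all tested genes, where 30.8% of all were higher. The motor gene Timm44 was called higher as well. Timm23, the channel-forming subunit, was at 41.7, 43.0 and 41.3 CPM in controls and at 63.9, 67.0 and 65.9 CPM with the Tug1 gapmer. The groups lay far apart relative to their spread, and the log2 fold change was 0.64 (SE 0.0593, adjusted p 2.88e-09). Timm44, which anchors the mitochondrial Hsp70 at the channel exit, was at 43.9, 41.7 and 45.7 CPM in controls and at 69.1, 63.8 and 66.5 CPM with the Tug1 gapmer. It too rose without overlap (0.60, SE 0.0614, adjusted p 1.38e-08).

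The other TIM23 genes showed smaller or more variable differences. Timm17b, a channel subunit on the X chromosome, was at 11.2, 14.6 and 13.6 CPM in controls and at 20.9, 21.7 and 17.4 CPM with the Tug1 gapmer, and rose by a log2 fold change of 0.61 (SE 0.111, adjusted p 5.08e-05). Its paralog Timm17a was at 55.5, 59.5 and 64.0 CPM in controls and at 71.5, 68.5 and 66.6 CPM with the Tug1 gapmer. The highest control lay close under the lowest Tug1 gapmer library. The rise of 0.21 (SE 0.0616, adjusted p 0.00563) was called, but not without control replicate 1 (0.15, adjusted p 0.0662). Timm21, which links the translocase to the respiratory chain, was at 10.9 ± 1.65 and 12.8 ± 1.11 CPM (SD, n = 3) with overlapping groups (0.24, adjusted p 0.0946). It was called higher without control replicate 2 (0.37, adjusted p 0.0195) and without Tug1 gapmer replicate 2 (0.30, adjusted p 0.0499). Timm50, the receptor of the complex, was at 39.0 ± 3.29 and 41.7 ± 1.06 CPM (SD, n = 3) and was not called (0.10, adjusted p 0.241).

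Of the 6 small TIM genes tested, 4 were called lower and none higher, with a median log2 fold change of -0.25. That is 66.7% called, near the 61.7% of all tested genes, where 30.9% of all were lower. The libraries of the groups did not overlap for 2 of the 6, against 65.6% of all tested genes. With an offset for gene length 2 of the 6 were lower and 1 higher (50% called, beside 62.1% of all), with a median of -0.13. Timm8a1, whose human counterpart is mutated in deafness-dystonia syndrome, was at 42.9, 41.3 and 35.6 CPM in controls and at 20.9, 22.2 and 18.4 CPM with the Tug1 gapmer. Its level with the Tug1 gapmer was 51.3% of that in controls, with a log2 fold change of -0.96 (SE 0.0871, adjusted p 2.01e-09), the lowest of the 23 genes. Timm10b, a peripheral partner of the TIM22 complex, was at 37.4, 35.1 and 34.3 CPM in controls and at 28.3, 24.1 and 20.8 CPM with the Tug1 gapmer. All 3 libraries of the Tug1 gapmer lay below the controls (-0.54, SE 0.0898, adjusted p 1.54e-05).

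Smaller differences were seen in the other small TIM genes tested. Timm13, the partner of Timm8 proteins, was at 75.1, 69.4 and 64.8 CPM in controls and at 66.0, 61.8 and 58.2 CPM with the Tug1 gapmer. Its groups overlapped, and its lower call (-0.17, SE 0.0644, adjusted p 0.0256) was lost without control replicate 1 (-0.12, adjusted p 0.181), without Tug1 gapmer replicate 2 (-0.17, adjusted p 0.0532) and without Tug1 gapmer replicate 3 (-0.12, adjusted p 0.142), and turned positive with a gene length offset (0.06). Timm10, which pairs with Timm9, was at 28.0, 27.0 and 24.4 CPM in controls and at 22.6, 25.2 and 21.2 CPM with the Tug1 gapmer. Its groups overlapped as well, and its adjusted p of 0.0482 lay just under the threshold (-0.20, SE 0.0863). That call was lost without control replicate 1 (adjusted p 0.177) or 2 (0.108) and without Tug1 gapmer replicate 1 (0.106) or 3 (0.200), and with the length offset the log2 fold change was -0.03 (adjusted p 0.745). Timm8b was at 31.0 ± 0.362 and 31.6 ± 2.67 CPM (SD, n = 3) and was not called (adjusted p 0.766). Nkapd1, which overlaps Timm8b, was called higher (0.18, SE 0.0679). Timm9 had 19 to 32 counts per library and was not called (-0.29, SE 0.284), and the same gap in the sources applies to its level. Timm9 and Tomm20l, which had 24 to 48 counts and was not called either (0.29, SE 0.229), overlap on opposite strands in the RefSeq table. Timm9 also overlaps Kiaa0586, on the opposite strand, whose counts were not examined here. Tomm20l also overlaps Arid4a, on the same strand, which had 200 to 329 counts and was called higher (0.46, SE 0.0884). Whether reads of Arid4a entered the Tomm20l counts was not tested.

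Both genes of the TIM22 carrier translocase were tested. Timm22, its channel subunit, was at 20.2, 19.7 and 19.9 CPM in controls and at 20.2, 19.3 and 18.2 CPM with the Tug1 gapmer, with overlapping groups and no call (-0.05, SE 0.0864, adjusted p 0.633). Timm29, a subunit needed to assemble the complex, was at 56.4, 62.2 and 55.4 CPM in controls and at 50.9, 49.0 and 45.5 CPM with the Tug1 gapmer. It fell without overlap (-0.26, SE 0.0652, adjusted p 0.00151), and this call was lost with the length offset (-0.08, adjusted p 0.259). Yipf2, which overlaps Timm29, was not called (0.01, SE 0.116).

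Summed by role, the 5 TIM23 complex genes were at 155, 173 and 166 CPM in control replicates 1 to 3 and at 211, 212 and 204 CPM in Tug1 gapmer replicates 1 to 3. The 7 small TIM genes were at 216, 206 and 193 CPM in controls and at 172, 170 and 149 CPM with the Tug1 gapmer. The TIM23 sum divided by the small TIM sum was 0.719, 0.838 and 0.861 in controls and 1.22, 1.25 and 1.37 with the Tug1 gapmer, a ratio chosen after its parts had been seen and given without a test. All 27 genes together summed to 1039 to 1051 CPM in controls and 1049 to 1119 CPM with the Tug1 gapmer.

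The balance within 3 paralog pairs was read from the ratio of their counts in each library, which is not corrected for length, so only its shift between groups is of use. The ratio of Timm17a to Timm17b was 4.95, 4.09 and 4.72 in controls and 3.42, 3.16 and 3.84 with the Tug1 gapmer. The ratio of Tomm40 to Tomm40l was 4.27, 5.85 and 5.43 in controls and 2.35, 2.61 and 2.75 with the Tug1 gapmer. The ratio of Timm8a1 to Timm8b was 1.39, 1.31 and 1.16 in controls and 0.649, 0.654 and 0.640 with the Tug1 gapmer. The log2 ratios differed by -0.401, -1.003 and -0.988 for the 3 pairs in that order. None of the pairs overlapped between groups. In an exact permutation test (two-sided) each gave p = 0.1, also after Benjamini-Hochberg adjustment over the 3 pairs, which is the smallest p that 3 libraries against 3 allow. How reads shared between paralogs were counted was not given in the sources used here.

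**Figure D3:**
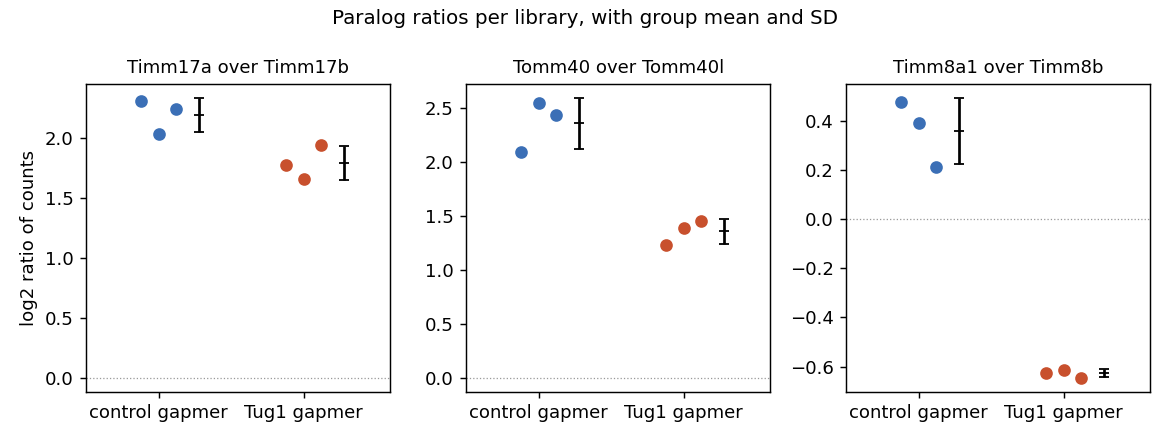
Log2 ratio of counts (y axis) within 3 paralog pairs in each control (blue) and Tug1 gapmer (red) library, with the group mean and SD as a black bar. Ratios of the Tug1 gapmer libraries lie below all control ratios in each pair, by -0.401, -1.003 and -0.988 on average.

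Import genes are short, and the fold changes in this experiment moved with gene length. Their median genomic span was 7168 bp, beside 22378 bp for all tested genes with a span in the RefSeq table, and the 7 lower genes had a median of 3566 bp against 11719 bp for the 6 higher ones. The ranges overlapped, at 1360 to 38466 bp for the lower genes, of which Tomm70 was the longest, and 4962 to 26092 bp for the higher. Across genes, which are not independent replicates, Spearman's rho between span and log2 fold change was 0.281 over the 23 import genes and 0.269 over 13084 genes in the same 6 libraries. With an offset that removes this trend from each library, 15 of the 23 were called, 11 higher and 4 lower, where 62.1% of 13084 genes were called, 30.3% higher and 31.8% lower. With library totals in place of TMM scaling the split was 8 higher and 5 lower. All genes moved the same way, to 4904 higher and 3890 lower from 4382 and 4389 with TMM. Under the length offset all 5 TIM23 complex genes were called higher, with log2 fold changes of 0.20 to 0.72, and Timm44 kept its rise (0.64). Timm8a1 (-0.81), Timm10b (-0.36), Tomm70 (-0.45) and Tomm7 (-0.19) were the 4 lower genes, and Timm8b was called higher (0.25, adjusted p 0.00487). Tomm5 (0.32) and Tomm22 (0.15) were also called higher.

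The other genes of the import pathway were compared from a list of 31, of which 30 were tested and 19 called, 8 higher and 11 lower (63.3%, beside 61.7% of all genes), with a median log2 fold change of 0.05. With the length offset 23 were called (76.7%, beside 62.1%), and the balance turned to 14 higher and 9 lower. In the disulfide relay that oxidises small TIM proteins, the oxidoreductase Chchd4 was at 17.9, 19.9 and 19.1 CPM in controls and at 9.35, 8.88 and 8.84 CPM with the Tug1 gapmer. It fell by 1.07 on the log2 scale (SE 0.103, adjusted p 6.03e-09), the largest fall of the list. Gfer, the sulfhydryl oxidase that recharges it, was at 45.7, 50.9 and 45.3 CPM in controls and at 25.6, 30.6 and 25.2 CPM with the Tug1 gapmer, and fell as well (-0.80, SE 0.0795, adjusted p 8.55e-09). Neither gene's groups overlapped, and both stayed lower with the length offset (-0.98 and -0.62). Aifm1, which docks Chchd4 at the inner membrane, rose by 0.21 (SE 0.0629, adjusted p 0.00701).

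The partners of the TIM23 motor moved in both directions. The nucleotide exchange factors Grpel1 (-0.37, SE 0.0648; -0.24 with the length offset) and Grpel2 (-0.48, SE 0.0881) fell, while the J-protein Dnajc15 (0.47, SE 0.104) and Pam16 (0.33, SE 0.0997) rose. Dnajc19 was not called (0.21, adjusted p 0.133), also not with the length offset (0.21, adjusted p 0.119). Hspa9, the matrix Hsp70 itself, was at 490 ± 17.5 and 508 ± 22.2 CPM (SD, n = 3) and was not called (0.05, adjusted p 0.314). At the outer membrane, Samm50, the core of the machinery that inserts beta-barrel proteins such as Tomm40, was at 52.0 ± 2.29 CPM in controls and 77.3 ± 0.743 CPM with the Tug1 gapmer (SD, n = 3), and rose by 0.57 on the log2 scale (SE 0.0572, adjusted p 1.02e-08). The other sorting and insertion genes were mixed. Mtch1 rose (0.28), Mtx3 fell (-0.18), and Mtx1 (-0.10), Mtx2 (0.14) and Mtch2 (0.10) were not called. Under the length offset Mtx3 lost its call (-0.13, adjusted p 0.0917) and Mtch2 was called higher (0.13, adjusted p 0.0111). Among presequence peptidases, Mipep rose by 0.52 (SE 0.0865), Immp1l by 0.46 and Pmpca by 0.16, Xpnpep3 fell by 0.16, and Pmpcb (0.10, adjusted p 0.0878) was not called. With the length offset Mipep was at 0.29, Pmpca at 0.25 and Xpnpep3 at -0.26, and Pmpcb was called higher (0.17, adjusted p 0.00585). Of 5 delivery and clearance genes 4 were called (80%, beside 61.7% of all tested genes), all lower, where 30.9% of all were lower. Ube2j2 was at -0.37, Atad1 at -0.31, Dnaja1 at -0.29 and Hsp90aa1 at -0.17. With the length offset Hsp90aa1 was not called (-0.05, adjusted p 0.373) and the chaperone Hspa8, which was not called before (0.06), was higher (0.22, adjusted p 0.000109).

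A second list of 16 genes held the cristae contact sites and mitochondrial proteases, of which 14 were called (87.5%, beside 61.7% of all genes), 9 higher and 5 lower, with a median log2 fold change of 0.22. With the length offset 12 were called (75%, beside 62.1%), 9 higher and 3 lower, with a median of 0.16. In the fits with no offset, 11 were called without control replicate 1 or without Tug1 gapmer replicate 2. Calls over all genes fell there too, to 8113 and 8332 from 8771. Apool (1.22, SE 0.108), Chchd6 (0.99, SE 0.14) and Apoo (0.88, SE 0.126), subunits of the MICOS complex at cristae junctions, rose, and Immt, its central scaffold, fell (-0.19, SE 0.0485). These risers are long genes, and with the length offset they were at 1.09, 0.66 and 0.68. All 8 proteases were called (100%, beside 61.7% of all genes), 4 higher and 4 lower, with a median log2 fold change of 0.03. Oma1 (0.71, SE 0.155, and 0.45 with the length offset) and Yme1l1 (0.51, SE 0.0614) rose most. Yme1l1 degrades inner membrane import subunits. The matrix protease Lonp1 fell most (-0.29, SE 0.0484). With the length offset Clpp (-0.11), Clpx (0.13) and Htra2 (0.04) were not called.

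**Figure D4:**
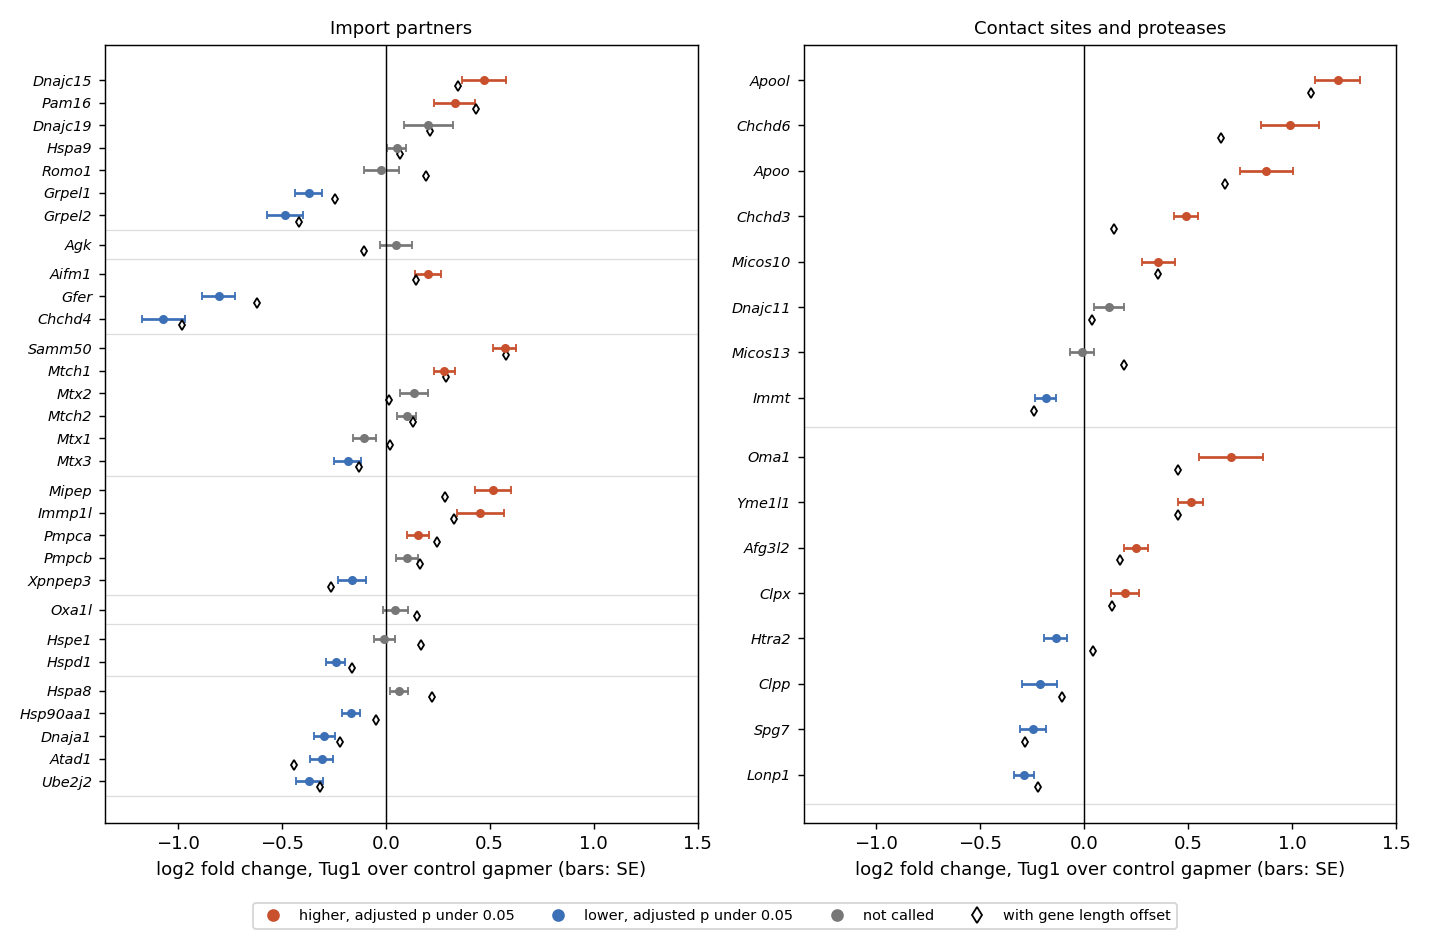
Log2 fold change (x axis, Tug1 gapmer over control gapmer, bars are SE) of the 30 tested import partners (left) and the 16 contact site and protease genes (right), with open diamonds for the fit with a gene length offset. Chchd4 (-1.07) and Gfer (-0.80) lie lowest on the left, and Apool (1.22) lies highest on the right.

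The 4 genes that did not pass the filter were Tomm6, Timm8a2 and the pseudogenes Timm23b and Timm17al1. Timm8a2 had 4, 2 and 4 counts in controls and 12, 12 and 8 with the Tug1 gapmer, so that its libraries did not overlap at a level close to the limit of 3 counts. Timm23b had 0 to 2 and Timm17al1 1 to 5 counts per library.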

How the data were processed

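RNA was sequenced from 6 libraries of H9c2 cells, 3 per gapmer. The deposited table held, for each library and gene symbol, whole-number counts that were neither scaled nor pooled. The submitters' processing notes name FastQC 0.11.7, fastp 0.14.1 and STAR 2.5. The counting tool, annotation, genome build and use of strand were not given in the sources used here, so overlapping genes are named where they bear on a value. The table had 1 entry that names no gene (MissingGeneID, 0.00376% to 0.00528% of counts), which was left out of library sizes and tests. Per the labels' protocols, stranded poly-A libraries were made from 500 ng of RNA with integrity numbers of at least 9.

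The analysis used edgeR 4.0.16 under R 4.3.3. After filterByExpr (counts of at least 10, totals of at least 15) 14215 genes remained. Scaling was by TMM (factors 0.979 to 1.02), and groups were compared by the quasi-likelihood test without a block (two-sided, prior count 0.125). P-values were adjusted by Benjamini-Hochberg over all genes tested, and every adjusted p in the text comes from that fit unless an alternative is named. CPM use TMM-scaled totals. Paralog ratios use the counts as they stand, and 0.5 added counts were an alternative. The limit of 3 counts covers counting error only.

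The genes and lists were chosen with earlier results of these data known. Described in full are called genes whose log2 fold change was 0.3 or more in size, the paralog pairs and both ends of the order, and of the partner lists called genes of at least 0.5 plus core motor, relay and sorting genes. Spans came from RefSeq GRCr8 for 92% of tested genes, through current symbols or, where these did not match, synonyms. The length offset takes out of each library a lowess curve (span 0.3) fitted to its log2 deviations against the log2 span. Scripts were checked on simulated counts. Alternatives were DESeq2 1.42.0 (Wald test, and its size factors in edgeR), library totals, limma-voom (limma 3.58.1), a threshold of 0.01, no filter, a filter at a mean of 1 CPM, a block for the replicate number, the length offset, and each library left out. No protein sequences were used here.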

Additional observations from a re-analysis of the deposited data

How the results depend on the processing

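Over 16 alternatives the number of import genes called ran from 11 to 15, and that of all genes from 7351 to 8985. Both length offset fits, without and with the replicate block, gave the same counts: 11 were higher and 4 lower. In them the median log2 fold change of the import genes was 0.152 (0.153 with the block). That of all tested genes was 0.000412 (0.000857 with the block). With library totals the import median was 0.081, while all tested genes had a median of 0.057. The median of the import genes was 0.0122 with no filter. With a library left out it ran from 0.0193 to 0.0554 (0.0554 without control replicate 3, 0.0502 without Tug1 gapmer replicate 3 and 0.0444 without control replicate 2). Replicate numbers did not pair the libraries (correlations of deviations -0.00531, 0.0298 and 0.027). With the replicate block alone 13 import genes were called, and the paralog differences kept their size (-0.401, -1.003 and -0.988, exact p 0.25 within numbers, the smallest possible).

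Of 23 genes, 11 kept direction and call in all 16 alternatives. Among 368 combinations of gene and alternative 323 kept both, 17 lost the call, 14 gained it and 14 changed sign. Sign changes concerned Timm13, called in the fit reported above, at 0.0561 with the length offset (0.0562 with the block), and 5 genes that were not called there. Tomm40 was at 0.0412 with library totals, 0.0564 with the length offset (0.0554 with the block), and from -0.0589 to 0.0248 with a library left out. Timm22 was at 0.0024 with library totals and 0.0535 with the length offset (0.0531 with the block). With a library left out, Tomm34 ranged from -0.0125 to 0.0858, Tomm22 from -0.0139 to 0.0477 and Timm8b from -0.0238 to 0.0945. Timm10 also lost its call with DESeq2's Wald test (adjusted p 0.103) and with library totals (0.141), as did Timm13 with library totals (0.121). The offset covers gene length by construction, and the cause of the other changes was not tested. Among the tested genes Timm9 (19 to 32) and Tomm20l (24 to 48) had the fewest counts per library.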

Other observations

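Timmdc1, an assembly factor of respiratory complex I whose symbol lies outside the naming rule used here, was counted 307, 320 and 302 times in the controls and 443, 429 and 438 times with the Tug1 gapmer. It rose by 0.44 on the log2 scale (SE 0.0747, adjusted p 2.41e-05 by edgeR).

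Without the expression filter Timm8a2 was called higher (edgeR adjusted p 0.0188), on 2 to 12 counts per library.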
